A study of Mus musculus with 8 samples.

Results

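The Obox genes (oocyte specific homeobox) were described as a family of 7 members, Obox1, Obox2, Obox3, Obox5, Obox6, Obox7 and Obox8, found by their gene symbol in the expression tables of mouse oocytes. Of 15962 genes listed in all 8 libraries, 5 were members: Obox1, Obox2, Obox3, Obox5 and Obox7. Obox6 was listed in the tables of the uninjected oocytes alone, and Obox8 was listed in none. A filter of at least 1 TPM (a gene's share of the library's transcripts after correction for gene length) in at least 2 libraries was passed by 4 members, Obox1, Obox2, Obox5 and Obox7, and these were tested among 13968 genes. Libraries came from 4 groups with 2 libraries each and 15 oocytes per library. GV oocytes are immature and hold an intact nucleus, the germinal vesicle, and MII oocytes have reached the arrest of the second meiosis, here by maturation in culture. Btg4wt and Btg4tm are MII oocytes that grew from GV oocytes injected with RNA for Myc-tagged wild-type BTG4 or for BTG4 with 3 residues turned to alanine, and both carry the endogenous Btg4 gene as well. All oocytes came from CD1 (ICR) females, for which the study's methods give an age of 6 weeks, without a count of mice for these libraries, so the spread between the 2 libraries of a group may be technical. Reverse transcription was primed with oligo(dT) in the Smart-seq2 method, so a longer poly(A) tail and more molecules cannot be told apart in these values, and nor can RNA per oocyte and the share of RNA in the library.

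Obox genes encode homeodomain proteins of the PRD class, a family that expanded in rodents and is known for transcripts stored in the oocyte and for a part in switching on the embryonic genome after fertilization. A fully grown oocyte makes almost no new RNA, so that maturation proceeds with stored messages, many of which lose their poly(A) tail and decay. BTG4 is the adaptor that brings the CCR4-NOT deadenylase to such messages. Other stored messages gain poly(A) in the same period, through the cytoplasmic polyadenylation element in front of the polyadenylation signal.

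The members lie close together on chromosome 7. In the GENCODE M21 annotation of GRCm38, the build to which the authors aligned their reads with a later GENCODE release, the 7 coding genes span chr7:14331436-15839678, and 53 of the 55 annotated genes whose names begin with Obox are in this span, most of them pseudogenes (47 of 55). Obox1, Obox2, Obox5 and Obox7 are on the plus strand and have 4 exons in the longest coding transcript. The third exon, which is coding, is printed because it shows both how alike the 4 abundant members are and where Obox2 departs, with bases that differ from Obox1 in capitals.
Obox1 exon chr7:15555505-15555704: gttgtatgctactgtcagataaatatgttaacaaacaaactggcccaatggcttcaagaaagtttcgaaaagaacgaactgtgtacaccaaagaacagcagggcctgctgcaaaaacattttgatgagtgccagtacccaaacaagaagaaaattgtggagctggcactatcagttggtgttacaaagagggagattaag
Obox2 exon chr7:15397188-15397386: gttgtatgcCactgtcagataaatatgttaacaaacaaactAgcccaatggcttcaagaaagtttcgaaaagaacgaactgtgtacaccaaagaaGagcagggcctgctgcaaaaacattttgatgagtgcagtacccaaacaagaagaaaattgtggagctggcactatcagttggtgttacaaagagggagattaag
Obox5 exon chr7:15757879-15758078: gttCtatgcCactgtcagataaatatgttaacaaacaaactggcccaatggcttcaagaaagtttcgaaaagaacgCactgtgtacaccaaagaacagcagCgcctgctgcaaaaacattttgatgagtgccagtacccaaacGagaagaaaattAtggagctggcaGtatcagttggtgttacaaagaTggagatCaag
Obox7 exon chr7:14664380-14664579: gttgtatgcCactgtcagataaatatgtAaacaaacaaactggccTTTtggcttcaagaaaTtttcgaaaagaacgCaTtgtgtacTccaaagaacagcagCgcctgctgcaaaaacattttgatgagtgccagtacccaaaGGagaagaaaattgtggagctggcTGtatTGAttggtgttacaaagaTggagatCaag
Against Obox1, the exon had 3 different bases in Obox2, 9 in Obox5 and 19 in Obox7. The exon of Obox2 has 199 bases where the others have 200, and the alignment placed the missing base at position 131 of the Obox1 exon, counted from its 5′ end. The annotated reading frame of Obox2 then ends after 151 codons, 37 bases into the last exon. With the exon of Obox1 put in its place, the frame of Obox2 would run for 204 codons, as many as Obox1 has. Obox7 has 218 codons, Obox5 has 291, Obox3 has 335, Obox6 has 347 and Obox8 has 217. This is the reference genome, and the alleles of the CD1 oocytes cannot be read from the expression values.

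Over aligned coding bases, Obox1 was 98.5% identical to Obox2, with 7 differences in 453 bases, and 95.6% identical to Obox5. Obox5 and Obox7 were 96.0% identical. Obox6 was 77.6% identical to Obox1, and Obox8, the most distant member, was 48.1% identical to it. The authors kept reads with a mapping quality of at least 10, and a read that fits 2 copies equally well has a low quality. Of the 1413 runs of 100 bases in the longest coding transcript of Obox1, 40.9% occurred in the transcripts of another annotated gene, and each of these genes was Obox2. In Obox2 the share was 42.5%, again with Obox1 as the partner. It was 2.69% in Obox7 and 0.115% in Obox5, and it was 15.9% in Obox3, whose partners were Obox3 pseudogenes. Obox6 and Obox8 shared no run of this length. The shared stretches of Obox1 and Obox2 were a 5′ part with 328 runs, a middle part with 96 and the 3′ end with 154. A copy outside annotated transcripts would not be seen here, since no genome sequence was used. In addition, 59 exon bases of Obox1 and Obox2 overlap, because the first exon of a further Obox1 transcript lies within Obox2, and they make up 3.11% of the exon bases of Obox1 and 3.58% of those of Obox2.

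**Figure D1:**
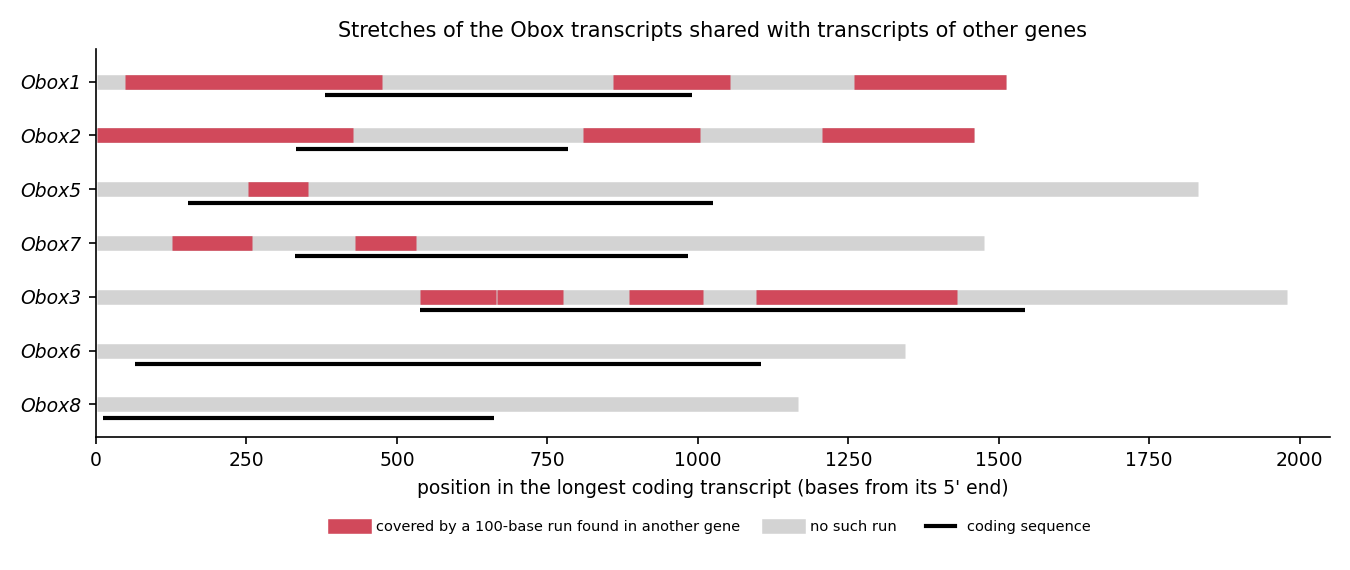
Longest coding transcript of each of the 7 members, drawn to scale in bases from its 5′ end, with stretches covered by a 100-base run that another annotated gene also holds in red, the remainder in grey and the coding sequence as a black line. Obox1 and Obox2 carry 3 shared stretches each, while Obox5 and Obox7 are grey over most of their length and Obox6 and Obox8 over all of it.

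The 3′ ends are printed because the values depend on poly(A) tails, with a cytoplasmic polyadenylation element (TTTTAT) and a polyadenylation signal (ATTAAA) in capitals. The letters were searched in the sense strand, and the signal AATAAA begins in the last bases of each site and overlaps ATTAAA.
Obox1 site chr7:15556811-15556839: TTTTATtgttagagtatatgttcATTAAA
Obox2 site chr7:15398490-15398518: TTTTATtgttagagtatatgttcATTAAA
Obox5 site chr7:15759213-15759241: TTTTATtgttagagtatatgttcATTAAA
Obox7 site chr7:14665943-14665971: TTTTATtgttagagaatatgttcATTAAA
The 29 bases were the same in Obox1, Obox2 and Obox5. The site ended 27 bases before the end of the transcripts Obox1-201 and Obox2-201 and 25 bases before that of Obox7-203. In Obox5-201 the annotated transcript ran on for 559 bases after it. An element (TTTTAT or TTTTAAT) in front of a signal (AATAAA or ATTAAA) within the last 100 bases was found in the longest coding transcript of Obox1, Obox2, Obox7 and Obox8, and not in those of Obox3, Obox5 and Obox6. Over 19716 coding genes with at least 100 bases after the stop codon, 12.2% had this arrangement, and among the 10528 of them that were tested here the share was 14.4%. A match is a run of letters and was not tested for use.

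RefSeq promoter windows (GRCm38.p6, all shown on the plus strand), from 250 bases before to 50 bases after the start, were at hand for 5 members, Obox1, Obox2, Obox3, Obox5 and Obox7. Those of Obox1 and Obox5 are printed as an example of the likeness around the RefSeq starts. Bases of Obox5 that differ in the alignment are in capitals. In GENCODE M21 the Obox1 gene begins at 15388948 and the Obox5 gene at 15750131. The window of Obox1 thus lies wholly, and that of Obox5 largely, within the gene as annotated there.
Obox1 promoter chr7:15547007-15547306: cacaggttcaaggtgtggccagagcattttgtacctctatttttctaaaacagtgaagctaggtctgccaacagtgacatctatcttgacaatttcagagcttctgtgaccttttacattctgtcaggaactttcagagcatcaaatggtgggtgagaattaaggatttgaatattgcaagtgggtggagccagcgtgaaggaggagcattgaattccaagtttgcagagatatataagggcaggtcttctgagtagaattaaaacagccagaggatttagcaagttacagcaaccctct
Obox5 promoter chr7:15750120-15750419: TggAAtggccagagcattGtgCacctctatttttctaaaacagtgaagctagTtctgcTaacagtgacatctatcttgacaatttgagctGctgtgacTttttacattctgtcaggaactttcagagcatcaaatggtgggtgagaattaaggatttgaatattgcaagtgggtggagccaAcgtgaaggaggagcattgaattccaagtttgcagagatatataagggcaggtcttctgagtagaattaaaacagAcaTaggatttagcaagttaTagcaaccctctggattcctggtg
The windows were 95.5% identical over 288 aligned bases, with 13 differences. The windows of Obox5 and Obox7 were 97.1% identical, and those of Obox1 and Obox2 were identical over the 203 bases that aligned, since the annotated starts are not at the same point. None of the 5 windows held TAATTG on either strand, which 8.15% of 27025 promoters did, and 1 held TATAAA (14.2% of promoters), that of Obox3. CANNTG occurred in 4 of the 5 and in 72.1% of promoters. TAATCC occurred in 1 of the 5, that of Obox3, and in 7.16% of promoters.

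In each library the TPM of all listed genes added up to 996199 to 998615, and factors from the median of ratios, by which TPM were divided to give the scaled TPM used below, were between 0.948 and 1.11. Depth is unknown with TPM, so the precision rests on the spread between the 2 libraries of a group. In limma this spread was pooled over the 4 groups, so the SE of a gene was the same in each comparison. Of 15 oocyte markers, 14 were listed and each was over 1 TPM in every library, with a summed level of 60208 to 65512 scaled TPM in GV and 74665 to 79520 in the 6 other libraries. Of 25 markers of cumulus and granulosa cells, which surround the oocyte, 8 were listed, and their summed level was 24.7 to 24.8 scaled TPM in GV and 28.3 to 35.2 in the others. Of the 4 tested cumulus markers none was called higher and 1 lower in MII over GV, and of the 14 oocyte markers 1 was called higher and 5 lower. Their part in the results was not tested. Btg4 itself was at 5792 and 6002 scaled TPM in MII, 5178 and 5510 in Btg4wt and 3725 and 4068 in Btg4tm, so the injected groups were not above uninjected MII oocytes in this row, where injected and endogenous RNA cannot be told apart.

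The 4 tested members were among the abundant RNAs of the oocyte. Obox2 was the highest, at 2059 and 2035 scaled TPM in GV, 3911 and 4340 in MII, 4218 and 4849 in Btg4wt, and 4119 and 4251 in Btg4tm. Its rank from the top of 15962 genes was 54 and 53 in GV and 27 to 35 in the 6 other libraries. Both GV libraries were thus well under all others, and the 3 MII groups lay close together. Obox5 was at 1253 and 1198 scaled TPM in GV, 2741 and 2955 in MII, 3055 and 3937 in Btg4wt, and 2320 and 2950 in Btg4tm. Obox1 was at 1385 and 1367 scaled TPM in GV, 2102 and 2273 in MII, 2257 and 3181 in Btg4wt, and 2627 and 3097 in Btg4tm. For both, the GV libraries were lowest, and the libraries of the 2 injected groups differed more among themselves than those of GV or MII. Obox7 was the lowest of these members, at 245 and 284 scaled TPM in GV, 519 and 471 in MII, 477 and 640 in Btg4wt, and 391 and 606 in Btg4tm. Its rank lay between 209 and 622.

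**Figure D2:**
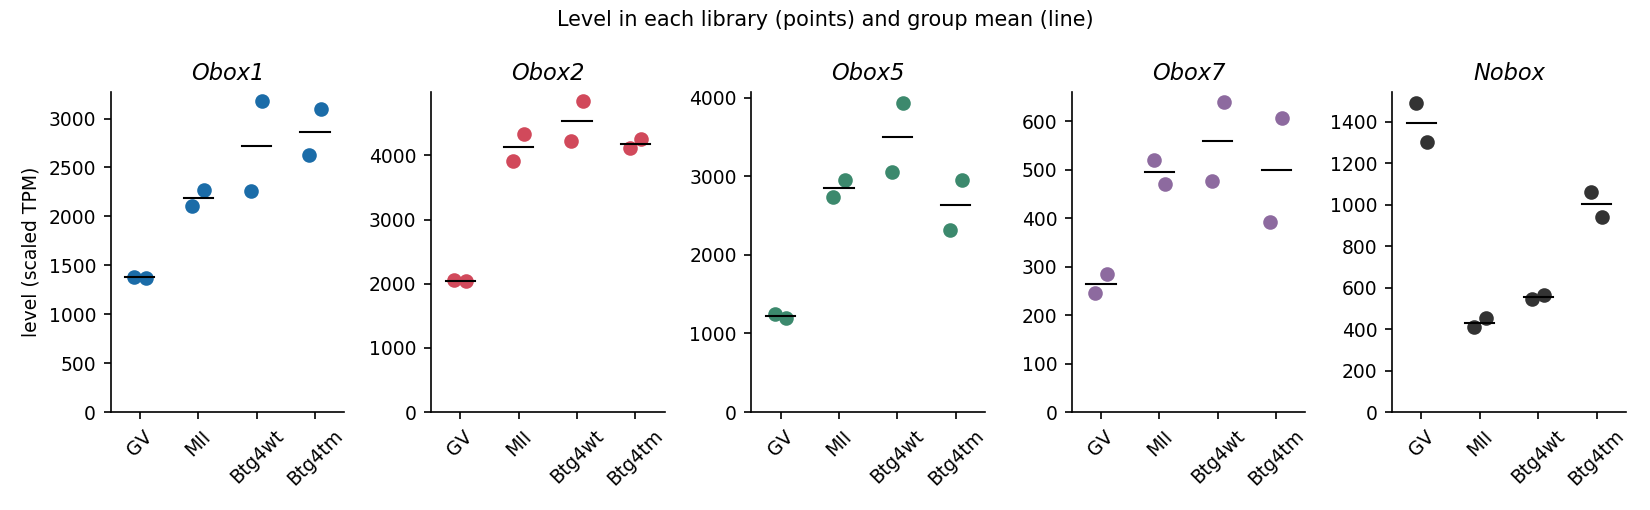
Level in scaled TPM (vertical axes from 0, one scale per gene) of the 4 tested Obox members and of Nobox in GV, MII, Btg4wt and Btg4tm oocytes, with a point per library and a line for the mean of 2. The GV points of each Obox member lie under those of the other groups under this scaling, a direction that turned for MII over GV with scaling to mitochondrially encoded genes, while those of Nobox lie above.

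Obox3 and Obox6 were near the lower end of the tables. Obox3, a member known from the early embryo, was between 0.0918 and 0.554 TPM as deposited in the 8 libraries, with the highest value in a Btg4tm library and the lowest in an MII library. Obox6 was at 0.463 and 0.640 TPM in GV and at 0 and 0.906 TPM in MII. Neither member passed the filter. In a fit without the filter, the log2 fold changes of Obox3 were -0.02 to 0.17 in the 4 comparisons, with adjusted p of 0.527 to 0.961, and Obox6 could not be fitted over all libraries. Another 5 rows whose names begin with Obox, all pseudogenes (Obox3-ps4, Obox3-ps6, Obox4-ps3, Obox4-ps30 and Obox4-ps34), were listed with 0 to 9.77 TPM, and 2 of them were in the tables of the injected oocytes.

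In GV the order was Obox2, Obox1, Obox5 and Obox7, with no overlap of the libraries of neighbours. In MII, Obox5 came before Obox1, again with no overlap. In Btg4wt and in Btg4tm the ranges of Obox1 and Obox5 over the 2 libraries overlapped, although within each Btg4wt library Obox5 was above Obox1 and within each Btg4tm library it was below. Reads that fit both Obox1 and Obox2 equally well would be dropped by the mapping filter, and its part in the order was not tested. Division of the mean scaled TPM by the share of 100-base runs that are unique to the gene, a step chosen after the values were seen, gave 2329 for Obox1 and 1227 for Obox5 in GV, and 3702 and 2851 in MII. Obox1 was then before Obox5 in all 4 groups, while Obox2 stayed first, with 3560 in GV and 7175 in MII. Comparisons of one gene between groups do not turn on this share as long as the lost share is the same in each library, which was not tested.

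The first comparison asked how the stored Obox messages changed in maturation. In the mature oocytes of the MII group the 4 tested members were above their GV levels under the scaling used here, under TPM as deposited and under quantile normalization, and lower with scaling to mitochondrially encoded genes. Obox5 was 2.32-fold higher (log2 fold change 1.21 ± 0.15, SE, n = 2 libraries per group, adjusted p = 0.000209), and Obox2 was 2.01-fold higher (1.01 ± 0.11, adjusted p = 8.27e-05). Both passed the call of an adjusted p under 0.05 with a log2 fold change over 1, which 12.5% of the tested genes passed upward and 24.0% downward. Obox7 was 1.87-fold higher (0.90 ± 0.21, adjusted p = 0.00626) and Obox1 was 1.59-fold higher (0.67 ± 0.16, adjusted p = 0.00722), and both missed the fold threshold. At an adjusted p under 0.05 with any fold, 4 of the 4 tested members were higher, against 29.8% of tested genes, and with quantile normalization Obox1 no longer passed (log2 0.34, adjusted p = 0.0637). In each of the 4, both MII libraries were above both GV libraries, as in 41.1% of tested genes. The median log2 fold change was -0.0017 over all tested genes, and those of the members were above that of 74.6% (Obox1), 83.9% (Obox7), 87.5% (Obox2) and 93.5% (Obox5) of them. The call of Obox2 lies at the threshold, and without MII replicate 2 its log2 fold change was 0.95, without Btg4tm replicate 1 it was 0.9997, and it was in both cases no longer over 1, which left 1 member called. The summed TPM of Obox1 and Obox2, fitted as 1 feature because the pair shares sequence, was 1.84-fold higher in MII (log2 0.88 ± 0.13, adjusted p = 0.000451). This fit was added after the values were seen, and the sum does not bring back reads dropped by the mapping filter.

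**Figure D3:**
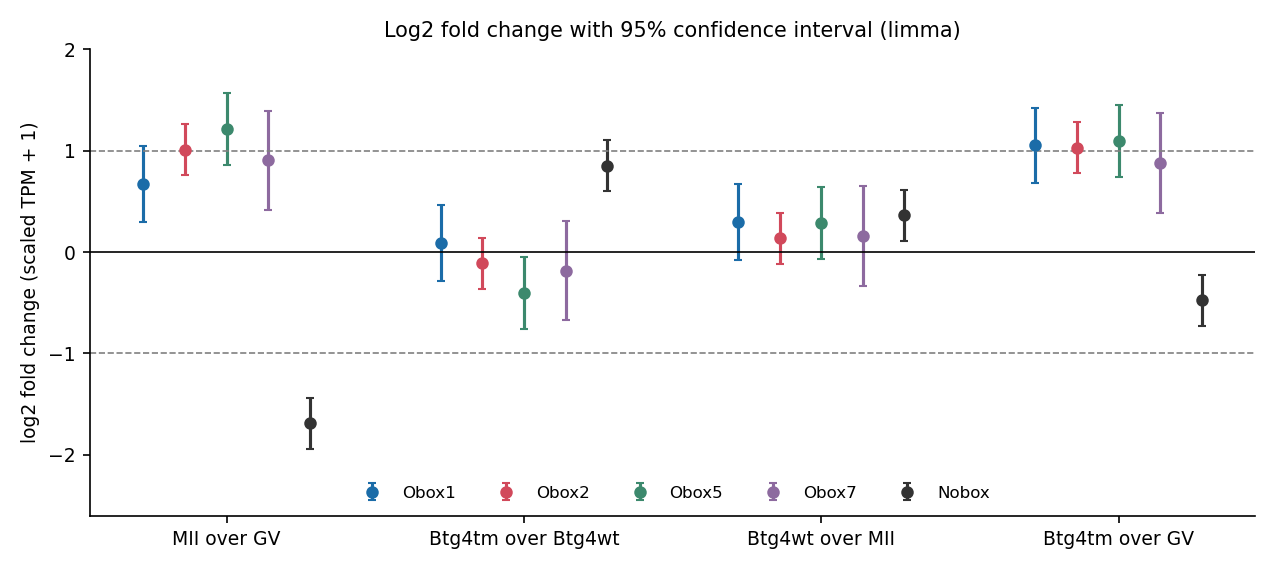
Log2 fold change on the scale of log2(scaled TPM + 1), with its 95% confidence interval from limma, for the 4 tested Obox members and Nobox in 4 comparisons, with dashed lines at 1 and -1. In MII over GV the intervals of the members are above 0 and that of Nobox is under 0, while in Btg4tm over Btg4wt those of Obox1, Obox2 and Obox7 include 0, and with scaling to mitochondrially encoded genes the members are lower in MII than in GV.

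All 4 changes depend on what the libraries are scaled to. Mitochondrially encoded RNAs made up 0.625% and 0.651% of the listed TPM in GV, 2.71% and 2.60% in MII, 2.07% and 1.77% in Btg4wt and 0.774% and 1.03% in Btg4tm. With scaling to these genes, the median log2 fold change of all tested genes in MII over GV was -1.74. Of 13968 tested genes, 11403 were called lower, and so were the 4 members, at -1.55 (Obox1), -1.31 (Obox7), -1.21 (Obox2) and -1.002 (Obox5). The members lay 0.19 to 0.74 above that median. Quantile normalization moved the median to 0.27 and left the members 0.07 to 0.67 above it, with no member called. TPM as deposited moved it to -0.13, with the members 0.63 to 1.18 above it and Obox5 the 1 member called. Whether the amount of Obox RNA per oocyte rose or fell is therefore not given by these values. The 4 members lay above the median of all genes under each scaling. Scalings by 1 factor per library move members and median together, apart from the pseudocount, so they are no separate check of this position. Quantile normalization can change it, and there Obox1 lay 0.07 above the median, close to it.

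**Figure D4:**
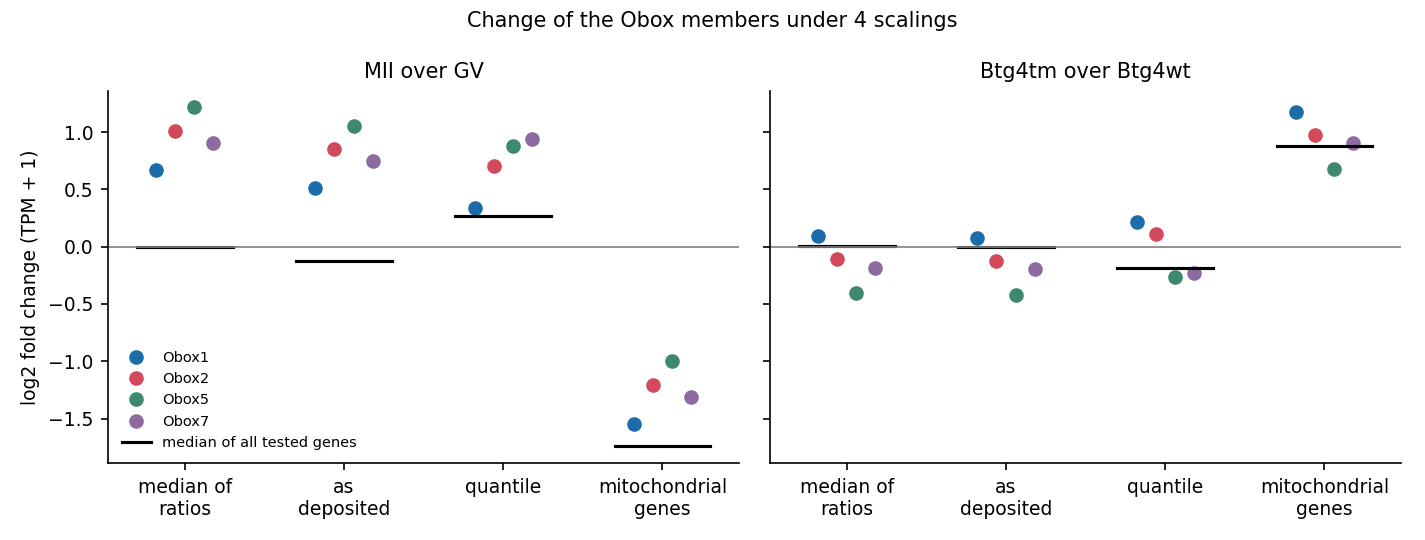
Log2 fold change of Obox1, Obox2, Obox5 and Obox7 (points) and the median of all tested genes (black line) in MII over GV (left) and Btg4tm over Btg4wt (right) under 4 ways of scaling the libraries. On the left the points are above the line under each scaling, although they are under 0 with scaling to mitochondrially encoded genes, and on the right they lie on both sides of the line.

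The second comparison asked whether the Obox messages differed between oocytes with mutant and with wild-type BTG4, and it shares no library with the first. No member was called in limma, while 18.1% of tested genes were called higher and 7.94% lower. Before adjustment 1 of the 4 tested members, Obox5, was under 0.05, against 55.5% of tested genes. Obox5 was lower in Btg4tm than in Btg4wt, the opposite of its sign with scaling to mitochondrially encoded genes. Its log2 fold change was -0.41 ± 0.15 (SE, n = 2 per group), with a 95% interval of -0.76 to -0.05 (adjusted p = 0.0578). For Obox2 the value was -0.11 (interval -0.36 to 0.14, adjusted p = 0.424), for Obox7 -0.18 (-0.67 to 0.31, adjusted p = 0.511) and for Obox1 0.09 (-0.28 to 0.46, adjusted p = 0.677). For these 3 members the intervals leave room for a change of either sign. With scaling to mitochondrially encoded genes the median of all tested genes was 0.88 and the members were at 0.68 to 1.18. Obox1 was then called higher, as were 6089 of 13968 tested genes. With quantile normalization the median was -0.18 and the members were at -0.27 to 0.22.

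The remaining 2 comparisons cross the 2 sets of tables, so that injection and the set of tables cannot be told apart. In Btg4wt over MII, limma called no gene (0% higher and 0% lower of 13968), with 1655 genes and none of the members under an unadjusted p of 0.05. The members' log2 fold changes were 0.13 to 0.29, and their adjusted p were 0.520 to 0.819. In Btg4tm over GV, 3 of the 4 tested members were called higher, where 1.02% of tested genes were called higher and 1.02% lower. Obox5 was 2.13-fold higher (log2 1.09 ± 0.15, adjusted p = 0.00642), Obox1 2.07-fold (1.05 ± 0.16, adjusted p = 0.00844) and Obox2 2.04-fold (1.03 ± 0.11, adjusted p = 0.00432). Obox7 was 1.84-fold higher (0.88 ± 0.21, adjusted p = 0.0373) and missed the fold threshold. At any fold, 4 of 4 passed the adjusted p, against 7.66% of tested genes, and in 4 of 4 both Btg4tm libraries were above both GV libraries, against 25.3%. The median of all tested genes in Btg4tm over GV was -0.08, and the members were above 97.4% (Obox7) to 99.1% (Obox5) of them. These values use the GV libraries of the first comparison and the Btg4tm libraries of the second. With scaling to mitochondrially encoded genes, which moved the median of all tested genes to -0.64, the members were at 0.25 to 0.46 and none passed the adjusted p at any fold (0.0921 to 0.361). Without Btg4tm replicate 2 the calls of Obox1, Obox2 and Obox5 went from 3 to 0, with log2 fold changes of 0.92, 0.99 and 0.91 and adjusted p of 0.0165 to 0.0375. Without GV replicate 2, Obox1 was at 1.06 with an adjusted p of 0.0532. The adjusted p of Obox7 was over 0.05 without the variance trend (0.0772), without GV replicate 1 (0.147) or 2 (0.114), without MII replicate 1 (0.0580) or 2 (0.0567) and without Btg4tm replicate 2 (0.120).

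The summed level of the listed members was 4943 and 4885 scaled TPM in GV, 9273 and 10040 in MII, 10007 and 12607 in Btg4wt, and 9457 and 10904 in Btg4tm. As a share of all listed TPM this was 0.528% and 0.544% in GV, 0.906% and 0.975% in MII, 0.994% and 1.22% in Btg4wt, and 0.940% and 1.04% in Btg4tm. The sum was 1.96-fold higher in MII than in GV, and lower with scaling to mitochondrially encoded genes (log2 change -1.24).

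Shares within the sum are the same under any scaling by 1 factor per library, while quantile normalization changes genes unequally and its shares were not computed. Obox2 held 38.5% to 43.6% of it in the 8 libraries, and Obox7 held 4.13% to 5.81%. Obox5 held 25.4% and 24.5% in GV, 29.6% and 29.4% in MII, 30.5% and 31.2% in Btg4wt, and 24.5% and 27.1% in Btg4tm. Obox1 held 28.0% in both GV libraries, 22.7% and 22.6% in MII, 22.6% and 25.2% in Btg4wt, and 27.8% and 28.4% in Btg4tm. Obox5 thus took a larger share than Obox1 in every MII and Btg4wt library, and a smaller one in every GV and Btg4tm library. The test of this unequal change, limma on log2 values with that of Obox1 taken off, was added after the values were seen and was 1 of 6 pairs of members in each of 4 comparisons. Taking Obox1 off puts its deviations into every row, and limma's pooled spread then draws on rows that share them. The adjustment ran over all rows and not over the pairs, so the adjusted p given here are a description. The log2 difference of Obox5 and Obox1 grew by 0.55 ± 0.23 (SE, n = 2 per group) from GV to MII, with an adjusted p of 0.0406, which ranged from 0.00380 to 0.214 over the alternatives. It was over 0.05 without either library of GV, of MII or of Btg4tm (0.0570 to 0.214), with no filter (0.0556) and without the variance trend (0.118), and under it without either library of Btg4wt. From Btg4wt to Btg4tm it fell by 0.50, with an adjusted p of 0.0797 and a range of 0.0149 to 0.279, the lowest being without Btg4wt replicate 2, and 0.0253 with the replicate block. The other 5 pairs had adjusted p of 0.185 to 0.656 in MII over GV and of 0.111 to 0.798 in Btg4tm over Btg4wt.

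**Figure D5:**
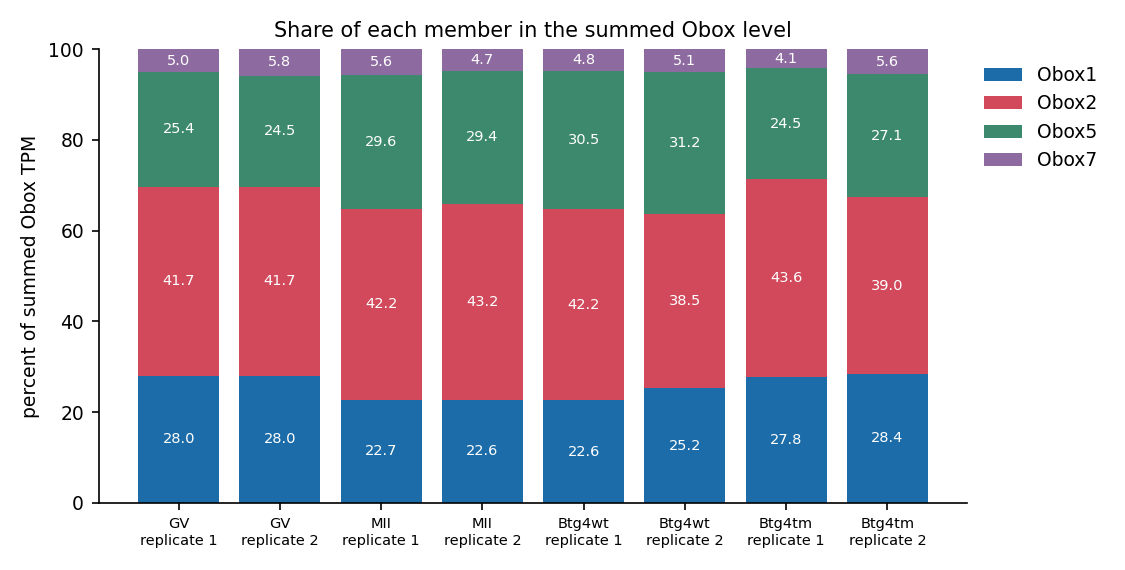
Percent of the summed Obox TPM held by Obox1, Obox2, Obox5 and Obox7 in each of the 8 libraries, as stacked bars from 0 to 100 with the percentage printed in each. Obox5 is larger than Obox1 in the MII and Btg4wt libraries and smaller in the GV and Btg4tm libraries. The shares are not divided by the unique part of each transcript, and with that division Obox1 was above Obox5 in all 4 groups.

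Nobox, a PRD-class gene needed for the growth of oocytes in early follicles, is shown beside the Obox members and was chosen after its values were seen, so its difference from them is a description. Nobox was at 1489 and 1302 scaled TPM in GV, 410 and 452 in MII, 544 and 563 in Btg4wt, and 1061 and 943 in Btg4tm. It was 3.23-fold lower in MII than in GV (log2 -1.69 ± 0.11, n = 2 per group, adjusted p = 6.33e-06), and in Btg4tm it was 1.80-fold higher than in Btg4wt (0.85 ± 0.11, adjusted p = 0.000357), under the fold threshold. Relative to Nobox, the log2 change of the members from GV to MII was 2.36 (Obox1) to 2.91 (Obox5) larger, and from Btg4wt to Btg4tm it was 0.76 (Obox1) to 1.26 (Obox5) smaller.

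Over all tested genes, 12.5% were called higher and 24.0% lower in MII over GV, and 18.1% higher and 7.94% lower in Btg4tm over Btg4wt. Of 49 other PRD-class homeobox genes, 10 were tested, and 2 were called higher (Pax2 and Shox2) and 3 lower (Gsc, Nobox and Sebox) in MII over GV, at a median log2 fold change of -0.72. In Btg4tm over Btg4wt none was called higher and 2 were called lower (Otx1 and Pax2), with a median of 0.08. Of 74 homeobox genes of other classes, 40 were tested, 11 were called higher and 3 lower in MII over GV (median 0.65), and 4 were called higher and 5 lower in Btg4tm over Btg4wt (median -0.46). The largest falls in MII over GV were those of Gbx2, a gene of brain patterning, from 51.3 and 50.9 to 8.77 and 8.73 scaled TPM (log2 -2.42 ± 0.13), and of Lhx8, which is needed in early follicles, from 165 and 174 to 42.0 and 54.0 (-1.81 ± 0.15). Both were called higher in Btg4tm over Btg4wt, Gbx2 by 1.66 ± 0.13 and Lhx8 by 1.10 ± 0.15 on the log2 scale. The largest rises in MII over GV were those of Nanog, a pluripotency gene at 0.719 and 0.554 scaled TPM in GV and 6.44 and 2.24 in MII (1.59 ± 0.46), and of Tshz1, from 24.6 and 23.1 to 74.5 and 62.4 (1.48 ± 0.13). The largest falls in Btg4tm over Btg4wt were those of Pax2, a gene of kidney and eye formation, from 17.5 and 17.3 to 2.76 and 6.54 scaled TPM (-1.79 ± 0.30), and of Tshz2, from 62.2 and 67.1 to 18.1 and 25.9 (-1.53 ± 0.19). With scaling to mitochondrially encoded genes, 8 PRD-class and 25 other homeobox genes were called lower in MII over GV and none higher. In Btg4tm over Btg4wt, 4 and 7 were then called higher and none lower. Of all 13968 tested genes, 11403 were called lower in MII over GV under that scaling, and 6089 higher in Btg4tm over Btg4wt.

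Of 39 genes known around activation of the embryonic genome, the process for which Obox proteins are known, 30 were tested. In MII over GV 7 were called higher and 3 lower (median log2 fold change 0.33), and in Btg4tm over Btg4wt 2 were called higher and 5 lower, with a median of -0.13. The shares over all tested genes were 12.5% and 24.0%, and 18.1% and 7.94%. Over all tested genes the medians were -0.0017 and 0.0077. With scaling to mitochondrially encoded genes the counts turned to 0 higher and 21 lower, and to 12 higher and 0 lower. Of all 13968 tested genes, 11403 were then called lower in MII over GV, and 6089 higher in Btg4tm over Btg4wt.

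Genes whose levels ran most like those of the 2 highest members were sought among the 6878 genes that averaged 10 scaled TPM or more, by the root mean square difference of the centred log2 values over the 8 libraries. For Obox2 these were Zc3h15 (0.05), Laptm4b, a membrane protein of lysosomes (0.07), Eif2s2, a subunit of the translation factor eIF2 (0.10), Slc25a39 (0.10) and Cdca3 (0.10). For Obox5 they were Yaf2 (0.11), Mbd3l2 (0.11), Cdc37l1 (0.13), Psen2, a presenilin (0.13), and Hnrnph3, an RNA-binding protein (0.14). The other members lay at 0.16 (Obox5), 0.17 (Obox1) and 0.19 (Obox7) from Obox2, and their rank among the 6878 genes is not given here. The named genes were picked as the nearest, so their smaller distances and their like fold changes follow from the choice. The 10 genes named here had log2 fold changes of 0.92 to 1.27 in MII over GV and of -0.60 to -0.04 in Btg4tm over Btg4wt.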

How the data were processed

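Libraries were made from 15 oocytes each with the Smart-seq2 method, and 8 were used here, 2 in each of 4 groups given by the labels. Per the labels and the study's methods, the authors trimmed reads with Trim Galore 0.6.10 and aligned them to GRCm38 with HISAT2 2.2.0. They counted paired-end reads on exons without strand with featureCounts 2.0.6, keeping primary alignments with a mapping quality of at least 10. The deposited values are TPM per gene and library. The gene lengths and read length behind them are not given in the sources used here.

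From these files, TPM were divided by median-of-ratios factors with a geometric mean of 1, and log2(scaled TPM + 1) was fitted over the 8 libraries with limma 3.58.1 (R 4.3.3, variance trend) for genes that reached 1 TPM in 2 or more libraries. A fold change on this scale understates the change of low genes. P-values were adjusted by Benjamini-Hochberg over 13968 genes, and the script was checked on simulated data. The call was an adjusted p under 0.05 with a log2 fold change over 1 or under -1. Transcripts were aligned with mafft 7.526. Named homeobox genes were the 2 with the largest rise and the 2 with the largest fall among those called in each of the first 2 comparisons, and Gsc, Sebox, Shox2 and Otx1 were named after their values were seen. The members and gene lists were chosen with earlier results of these data known. Pseudocount, filter, scaling, variance trend, replicate block and each library were varied in turn.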

Additional observations from a re-analysis of the deposited data

How the results depend on the processing

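Scaling moved the results most. Members called higher in MII over GV went from 2 of 4 tested to 1 with TPM as deposited and 0 with quantile normalization. With scaling to mitochondrially encoded genes, 11403 of 13968 tested genes were called lower, and so were 4 of these members, with 0 higher. Without a minimum fold 4 were called, and leaving out 1 library gave 1 to 3. With mitochondrial scaling the log2 fold changes were -1.55 (Obox1), -1.21 (Obox2), -1.002 (Obox5) and -1.31 (Obox7). In Btg4tm over Btg4wt this scaling called 6089 of 13968 tested genes higher, 1 member among them. It turned Obox2 (0.98), Obox5 (0.68) and Obox7 (0.90), and quantile normalization turned Obox2 (0.11). Obox5 there had an adjusted p in limma of 0.0145 with mitochondrial scaling, where its sign was turned. Among the alternatives with a fall of Obox5 and both libraries of each group kept, it was 0.0315 (TPM as deposited) to 0.110 (without the variance trend). Leaving out single libraries gave Obox5 log2 fold changes of -0.60 to -0.23. Without single libraries, Obox1 in that comparison ranged from -0.17 to 0.33 and Obox7 from -0.50 to 0.13, and Obox7 in Btg4wt over MII ranged from -0.05 to 0.38. Values of the turned fits were -0.17 and -0.030 for Obox1, and 0.023, 0.13 and, in Btg4wt over MII, -0.048 for Obox7. In Btg4tm over GV, 0 members were called with TPM as deposited, 0 with quantile normalization and 0 with mitochondrial scaling, and 0 to 4 without 1 library. The cause was not tested.

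The log2 change of the summed level was 0.82 (TPM as deposited), 0.67 (quantile) and -1.24 (mitochondrial) in MII over GV, and 0.93 to 1.04 without 1 library. With mitochondrial scaling it was 0.94 in Btg4tm over Btg4wt and 0.72 in Btg4wt over MII. In Btg4tm over GV it was 0.88, 0.87 and 0.41 under the same 3 scalings, and 0.93 to 1.13 without 1 library. The share of runs found in other genes was 59.3% (Obox1), 63.0% (Obox2), 32.7% (Obox3), 13.0% (Obox5), 5.02% (Obox6) and 20.2% (Obox7) at 50 bases. At 150 bases it was 31.4% (Obox1), 32.7% (Obox2), 8.47% (Obox3), 0% (Obox5) and 0% (Obox7).

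For MII over GV, TPM as deposited gave 0 PRD-class genes higher, and 6 other homeobox genes higher and 5 lower. Mitochondrial scaling gave 0 higher and 8 lower (PRD class), 0 and 25 (other homeobox) and 0 and 21 (genome activation), and quantile normalization gave 11 genome activation genes higher. For Btg4tm over Btg4wt, mitochondrial scaling gave 4 higher and 0 lower (PRD class), 7 and 0 (other homeobox) and 12 and 0 (genome activation). Quantile normalization gave 1 other homeobox gene higher and 9 lower and 8 genome activation genes lower. A pseudocount of 0.1 gave 9 other homeobox genes lower. Over all 13968 tested genes, the calls higher and lower in MII over GV were 1145 and 3699 with TPM as deposited. They were 3110 and 2710 with quantile normalization and 7 and 11403 with mitochondrial scaling. In Btg4tm over Btg4wt they were 2088 and 1786 (quantile), 6089 and 69 (mitochondrial) and 2754 and 1466 (pseudocount 0.1).

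With the replicate block, 2 members were called in MII over GV, 0 in Btg4tm over Btg4wt, 0 in Btg4wt over MII and 3 in Btg4tm over GV, the same counts as without it, and Obox5 in Btg4tm over Btg4wt had an adjusted p of 0.0374. Whether same-numbered libraries were paired is unknown. Their deviations correlated at -0.05 to 0.06, which shows no pairing but cannot exclude it. The share of a fall regained in Btg4tm was planned for members called lower in MII over GV, of which there were none. Depth is unknown, and 2 libraries a group limit each interval.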
